A study of Mus musculus with 3 samples.

Results

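The genes described here are 37 regulators of pluripotency and of the first lineages of the mouse embryo, measured at the four-cell stage. They were chosen by name: a probe belonged to the set when the gene name in the array tables, or an older synonym of it, was one of the 37. A total of 35 of the 37 had a probe on the array, with 57 of the 41174 non-control probes, and no probe carried the name Fgf4 or Prdm14. Of the 35 genes, 19 had a probe bright enough to be compared between groups, out of 7254 such genes among the 27670 genes on the array.

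The study compared embryos grown from pressurised oocytes with embryos from control oocytes that were handled alike but not pressurised. High hydrostatic pressure (abbreviated HP) of 20 MPa had been applied to the oocytes at 37 °C for a time of 60 min. The sample labels state that sperm was injected into the oocytes of both groups (ICSI), while the title of the series speaks of in vitro fertilisation, and all embryos were cultured to the four-cell stage. HP pools 1, 2 and 3 held 44, 30 and 37 embryos, and control pools 1, 2 and 3 held 36, 33 and 24 embryos. Every one of the 3 two-colour arrays (Agilent) carried the HP pool and the control pool of 1 replicate number, with HP in Cy5 and control in Cy3 on every array, so dye and treatment cannot be told apart in any ratio below. The design text calls the pools biological replicates without saying whether they came from separate animals, so a p-value here reflects the spread among these pools alone. The sources name no strain, age or sex of the animals, and a pool averages over its embryos. In such bulk samples fewer cells expressing a gene and less RNA of it per cell cannot be told apart.

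The first cell types of the mouse embryo are the inner cell mass, which forms the fetus, the trophectoderm, which forms the placenta, and the primitive endoderm, which forms yolk sac tissue. Oct4 (Pou5f1), Nanog and Sox2 are the best known transcription factors of the pluripotent inner cell mass, and Klf, Sall and Esrrb factors act in the same network. Tead4 with its coactivators Yap1 and Wwtr1 (TAZ) switches on Cdx2 and Gata3 in outer cells that become trophectoderm, while FGF signalling and Gata6 direct inner cells towards primitive endoderm. At the four-cell stage these lineages have not yet formed, and the cells still hold many transcripts stored in the oocyte or made in the first wave of embryonic transcription.

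The readout of each gene is the hybridisation of amplified, dye-labelled RNA to probes of 60 bases. The 6 probes printed here, read from the array tables and written 5′ to 3′, are those behind the values in which the identity of the probe bears on the reading. Positions are those of the array design on mouse build mm7.
Sall4 (chr2:168545326-168545385, minus strand): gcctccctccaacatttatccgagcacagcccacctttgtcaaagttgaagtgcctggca
Pou5f1 (chr17:33612047-33612107, plus strand): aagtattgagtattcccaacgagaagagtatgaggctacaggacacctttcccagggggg
Dppa5a (chr5:28571256-28571315, plus strand): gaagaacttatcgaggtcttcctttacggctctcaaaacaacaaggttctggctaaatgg
Sox21 (chr14:112637960-112638019, minus strand): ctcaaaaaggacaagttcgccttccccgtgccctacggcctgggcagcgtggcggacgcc
Klf5 (chr14:93704580-93714312, plus strand): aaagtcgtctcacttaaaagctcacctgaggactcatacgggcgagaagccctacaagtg
Wwtr1 (chr3:57586143-57589610, minus strand): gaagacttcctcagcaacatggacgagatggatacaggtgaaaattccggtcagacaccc
The Sall4 probe gave the highest positive ratio of the set, and the Pou5f1 probe is the only one for that gene. The Dppa5a, Klf5 and Wwtr1 probes are shown for their placement in the design, and the Sox21 probe as 1 of 3 for its gene. The design coordinates of the Klf5 probe span 9733 bases and those of the Wwtr1 probe 3468 bases for 60 bases of sequence. Those of the Pou5f1 probe span 61 bases for 60 bases of sequence, and what this does to its signal was not tested. Of the 57 probes, 8 had a span other than 60. The design put this Dppa5a probe on chromosome 5, whereas the RefSeq table (GRCm38.p6) has the gene on chromosome 9; the other 56 probes lay on the RefSeq chromosome of their gene.

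Of all 41174 probes, 19%, 19.8% and 17.5% were well above background in HP pools 1, 2 and 3 by the scanner software's own call, and 19.9%, 23.1% and 18.5% in control pools 1, 2 and 3. No spot was saturated. Taken over all tested genes, the levels of HP pools 2 and 3 lay closer to each other (SD of the log2 difference 0.231) than any other pair of pools (0.463 to 0.642). Of 12 marker genes of oocytes and early embryos with a probe, 6 were above background in every HP pool and 5 to 6 in the control pools. The other 6 (Zp2, Nlrp5, Zar1, Ooep, Mos and Padi6) were above background in no pool. The summed intensity of all 12 markers was 19811 to 35444 in HP pools and 13281 to 16486 in control pools. The log2 ratios of the 6 tested ones (Zp3, Gdf9, Bmp15, Oog1, Dppa3 and Oosp1) lay between 0.02 for Zp3 and 1.48 for Oog1, with a median of 0.61. Of 12 granulosa and cumulus markers, 0 to 1 were above background per pool, with Has2, Amh, Foxl2 and Fshr above it in none. Sperm markers numbered 0 to 1 of 8 in HP pools and 1 to 2 of 8 in control pools, and fibroblast and blood markers 2 of 10 in HP pools and 1 of 10 in control pools. The part of the oocyte transcripts in the results below was not tested.

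Transcripts of the set were detected more often than those of the array as a whole, and the detection was uneven between the lineages. In HP pools 1, 2 and 3, 38.6%, 43.9% and 36.8% of the 57 probes were well above background, and in control pools 1, 2 and 3 it was 43.9%, 45.6% and 38.6%. By gene, 17, 20 and 17 of 35 were detected in the HP pools, against 19, 21 and 17 of 35 in the control pools. A gene was compared between groups when 1 of its probes passed this call on 2 or more of the 3 arrays within 1 channel. That held for 19 of 35 genes (54.3%), beside 26.2% of all genes on the array, and 15 of 35 (42.9%) were detected in both channels of all 3 arrays, beside 15.9% of all genes. All genes here include entries known only by an accession or a probe name, each taken as a gene.

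By role, 8 of 11 core inner cell mass and pluripotency genes (72.7%) were bright enough to compare, as were 5 of 7 further pluripotency genes (71.4%). Among trophectoderm genes it was 5 of 13 (38.5%), and among primitive endoderm genes 1 of 4 (25%), beside 26.2% of all genes on the array. The primitive endoderm share was thus near that of the array and rests on 4 genes. The plot of detection by pool shows that most genes were either detected throughout or not at all.

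**Figure D1:**
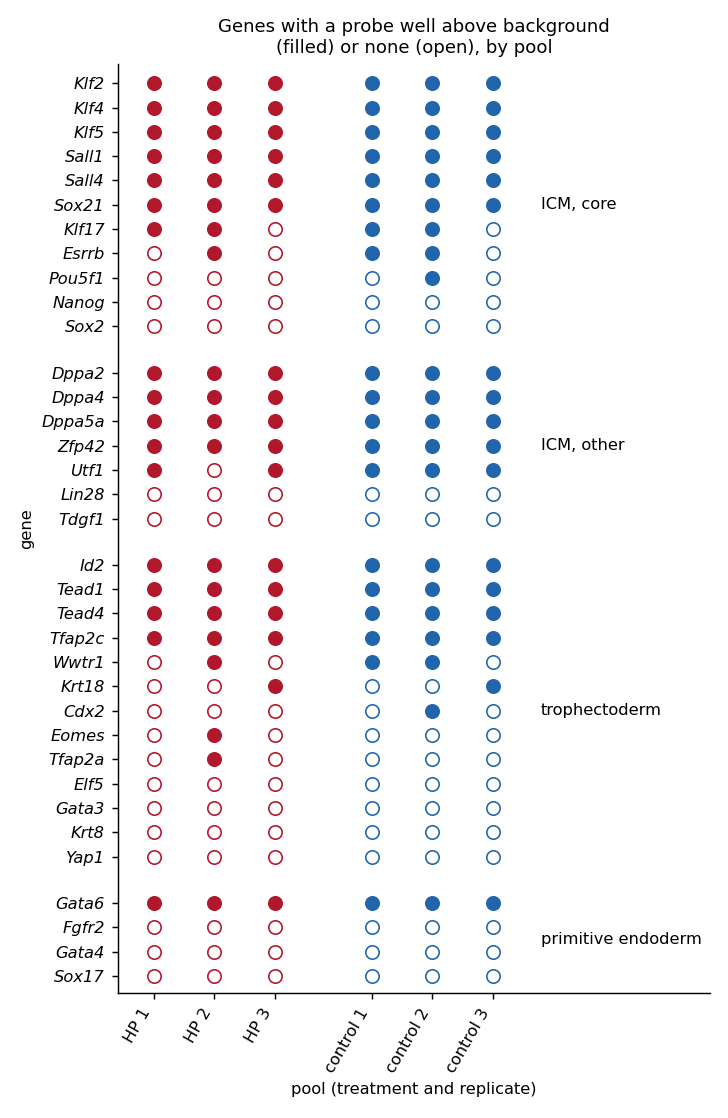
Detection of the 35 genes (rows, grouped by role; ICM, inner cell mass) in the 3 HP pools and the 3 control pools (columns). A filled circle stands for a gene with at least 1 probe well above background in that pool, and an open circle for none. The 15 rows filled throughout include Klf2, Klf4, Sall4, Dppa5a, Tead4 and Gata6, and the 11 open rows include Nanog, Sox2, Krt8 and Yap1.

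A group of 11 genes was above background in no pool. They were Nanog and Sox2 of the core pluripotency network; Lin28, an RNA-binding protein that blocks let-7 maturation, and Tdgf1, a Nodal co-receptor; Elf5, Gata3, Krt8 and Yap1 among trophectoderm genes; and Gata4, Sox17 and the FGF receptor Fgfr2 among primitive endoderm genes. Counting single probes, 27 of the 57 gave no call in any pool, and their levels lay between 6.11 and 6.43 log2 intensity in all 6 pools, beside a median of 6.25 over all undetected probes of the array in each pool. Values this close to the median of undetected probes only bound the RNA level and do not show that a transcript was absent.

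A further 5 genes had a call on 1 array only. Pou5f1 had levels of 6.30, 6.33 and 6.34 log2 intensity in HP pools 1, 2 and 3 and of 6.39, 6.58 and 6.37 in control pools 1, 2 and 3, and only control pool 2 was above background. No fold is given, because the other 5 readings were not above background. Cdx2, the transcription factor that maintains trophectoderm, behaved alike, with 6.28, 6.33 and 6.39 in HP pools against 6.49, 6.59 and 6.37 in control pools and a call in control pool 2 alone. Eomes, a T-box factor of trophoblast stem cells, and Tfap2a, an AP-2 factor, were each above background in HP pool 2 alone, at 6.50 and 6.52 log2 intensity. Krt18, a keratin of the trophectoderm, was above background in HP pool 3 (6.60) and control pool 3 (6.60), which lay on the same array, and in no other pool. None of these 5 genes was compared by a test.

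Several genes of the set carried more than 1 probe, and 7 of them had both a probe bright enough to compare and a probe that was not. In 6 of the 7 (Tead1, Id2, Gata6, Esrrb, Klf5 and Sox21), the probe placed farthest downstream along the gene by its design end was among the bright ones. For Klf5 this holds for the end only, since the span of its bright probe contains the dim one. Wwtr1 was the exception. Over all 3259 genes of the array with such a mixed outcome, the most downstream probe was bright in 66.9%. For Gata6 and Tead1, 1 of 3 probes was bright, and for Id2, Esrrb, Klf5 and Wwtr1 1 of 2. Each of these genes thus rests on a single probe in what follows.

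The comparison of HP with control asks whether pressure applied to the oocyte went with a different level of these regulators after the first cleavages. None of the 19 genes passed Benjamini-Hochberg adjustment over the 7254 tested genes at 0.05 in limma, and neither did any other gene on the array (0%). The lowest adjusted p in the set was 0.19. Counted by probe, 3 of 24 had an unadjusted p under 0.05, beside 17.8% of the 8590 tested probes. Before adjustment, 3 of the 19 genes had p under 0.05, beside 1342 (18.5%) of all tested genes, and all 3 are described in full. They were Sall4, with a positive ratio (7.25% of all tested genes were positive at this p), and Klf4 and Gata6, with negative ratios (11.2%). On the log2 scale, HP over control, 11 of the 19 mean ratios were below 0, beside 51.7% of all tested genes. Among the 11 were Esrrb and Wwtr1, which were compared through the control channel alone, a filter that favours a negative ratio. The median ratio was −0.05, and −0.01 over all tested genes. A share of 8 of 19 had the same sign on all 3 arrays, beside 48.3%, with 4 above 0 on all arrays (23.2% of all tested genes) and 4 below 0 on all (25%), and none differed at least 2-fold on every array, beside 0.372%. HP and control pools did not overlap for 3 of the 19 (Klf4, Dppa4 and Sall4), beside 26.5%. These shares are near or below those of the array as a whole.

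**Figure D2:**
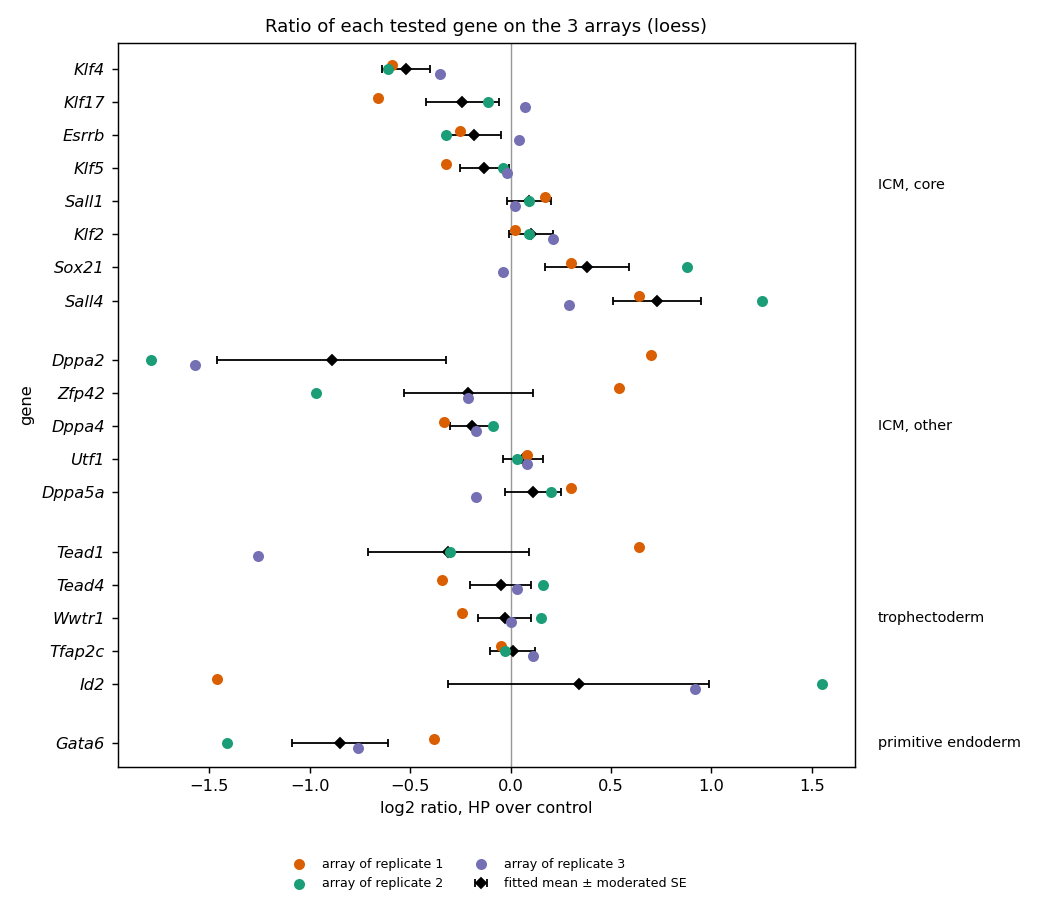
Log2 ratio, HP over control, of the 19 compared genes on each of the 3 arrays (coloured points) and the fitted mean with its moderated standard error (black diamonds), grouped by role. Klf4, Sall4 and Gata6 lie on 1 side of 0 on every array, whereas the points of Dppa2, Id2 and Tead1 fall on both sides, between −1.79 and 1.55.

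Among the core pluripotency genes, Klf4 had the smallest p. Klf4 is a Krüppel-like factor that sustains the pluripotent state together with Klf2 and Klf5. Its levels were 9.5, 9.40 and 9.38 log2 intensity in HP pools 1, 2 and 3 and 10.09, 10.01 and 9.73 in control pools 1, 2 and 3. Every HP pool lay below every control pool, and the HP pools were close together (9.42 ± 0.06, SD, n = 3) beside 9.94 ± 0.19 in control pools. The log2 ratio was −0.52 ± 0.12 (moderated SE), or 1.43-fold lower in HP, with an unadjusted p under 0.05 and adjusted p = 0.19 in limma. The unadjusted p was above 0.05 with replicate 2 left out (ratio −0.47), with a background offset of 0 (−0.52) and with the scanner software's own log ratio (−0.53).

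Sall4, a zinc-finger factor that keeps Pou5f1 active in the inner cell mass, ran the other way. Its levels were 13.31, 13.55 and 13.23 log2 intensity in HP pools 1, 2 and 3 and 12.67, 12.29 and 12.95 in control pools 1, 2 and 3. The groups did not overlap, and the gap was widest on the array of replicate 2. The log2 ratio was 0.73 ± 0.22, or 1.65-fold higher in HP, with an unadjusted p under 0.05 and adjusted p = 0.235 in limma. A second probe for Sall4 had 7.23, 7.39 and 7.25 in HP pools and 7.50, 7.08 and 7.40 in control pools, which overlapped, and its ratio was −0.04. The ratio of the first probe also turned to −0.46 when each array was centred on its median in place of loess, a scaling that put the median of all tested genes at −0.39, and so stood at −0.07 relative to that median. The unadjusted p was also above 0.05 without replicate 1 (ratio 0.77), without replicate 2 (0.46), over the mean of both probes (0.34), with a background offset of 0 (0.69) and with the scanner software's log ratio (0.55).

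None of the other Klf factors had an unadjusted p under 0.05. Klf2, which like Klf4 supports naive pluripotency, had 10.51, 10.55 and 10.37 log2 intensity in HP pools 1, 2 and 3 and 10.49, 10.46 and 10.16 in control pools 1, 2 and 3, so the groups overlapped. Its log2 ratio was 0.10 ± 0.11, and −0.85 under median centring; its second probe gave −0.08. Klf17, an early embryonic member of the family, had a ratio of −0.24 ± 0.18, which came from the array of replicate 1 (−0.66), with −0.11 and 0.07 on the arrays of replicates 2 and 3. Klf5, needed for both inner cell mass and trophectoderm, had 6.56, 6.72 and 6.68 in HP pools and 6.88, 6.76 and 6.70 in control pools, and a ratio of −0.13 ± 0.12 on the probe printed above.

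The remaining core genes were Sox21, Esrrb and Sall1. Sox21 is a target of Oct4 and Sox2 whose level is known to differ between the cells of a four-cell embryo. Its brightest probe read 8.35, 9.45 and 8.80 log2 intensity in HP pools 1, 2 and 3 and 8.05, 8.57 and 8.85 in control pools 1, 2 and 3. Replicate 2 was higher in the HP pool and replicate 3 was nearly equal, and the mean ratio was 0.38 ± 0.21, or −0.41 under median centring. A second Sox21 probe gave 0.03. Esrrb, an orphan nuclear receptor of the pluripotency network, had 6.35, 6.58 and 6.45 in HP pools and 6.60, 6.90 and 6.41 in control pools. It was above background only in HP pool 2 and control pools 1 and 2, so it was compared through the control channel alone. Such a filter favours a negative ratio, and the direction of Esrrb is not read. Its ratio was −0.18 ± 0.13, which was −0.43 with a background offset of 0 and −0.82 with the scanner software's log ratio. Sall1, a relative of Sall4, had 0.09 ± 0.11, and −0.13 under median centring, which is 0.26 relative to the median of all tested genes there.

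Dppa2 had the widest mean ratio of the set and did not pass even before adjustment. Dppa2 and Dppa4 are partner proteins that prime promoters of early embryonic genes, and their probes lay 25 kb apart on chromosome 16. Dppa2 had 9.72, 8.35 and 8.64 log2 intensity in HP pools 1, 2 and 3 and 9.02, 10.14 and 10.21 in control pools 1, 2 and 3. HP pool 1 was above control pool 1, whereas HP pools 2 and 3 were far below their controls. The ratios were 0.70, −1.79 and −1.57 on the arrays of replicates 1, 2 and 3, with a mean of −0.89 ± 0.57 (adjusted p = 0.424 in limma). Without replicate 1 the ratio was −1.68, with adjusted p = 0.0788, and it was −0.44 without replicate 2, −0.55 without replicate 3 and −0.49 with replicates 2 and 3 counted as 1.

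Dppa4 was steadier. It had 6.88, 6.90 and 6.81 log2 intensity in HP pools 1, 2 and 3 and 7.21, 6.98 and 6.98 in control pools 1, 2 and 3, so every HP pool was lower, by little. Its ratio was −0.19 ± 0.11 (adjusted p = 0.396 in limma), and −0.38 with a background offset of 0. The 2 neighbours thus differed in pattern on the array of replicate 1, where Dppa2 read 0.70 and Dppa4 −0.33; the difference between them was not tested.

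Zfp42 (Rex1), a zinc-finger protein used as a marker of the naive pluripotent state, shared the pattern of Dppa2 on a smaller scale. It had 8.35, 7.42 and 7.55 log2 intensity in HP pools 1, 2 and 3 and 7.81, 8.39 and 7.76 in control pools 1, 2 and 3, with ratios of 0.54, −0.97 and −0.21. Its mean ratio was −0.21 ± 0.32, and 0.16 without replicate 2. A second probe, which shares the run TGTGCTATTGAAGGGGATGG (20 bases) with the first and is thus no separate reading of that stretch, gave 0.26, −0.66 and −0.03.

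Dppa5a, an RNA-binding protein of pluripotent cells, had 14.39, 14.20 and 14.05 log2 intensity in HP pools 1, 2 and 3 and 14.09, 14.00 and 14.21 in control pools 1, 2 and 3. The groups overlapped, and the ratio was 0.11 ± 0.14, which became −0.23 with the scanner software's log ratio and −1.17 under median centring. The other Dppa5a probe, printed above, had 7.33, 7.61 and 7.50 in HP pools and 7.59, 7.59 and 7.65 in control pools, with a ratio of −0.13. Utf1, a chromatin factor of embryonic stem cells, had 6.66, 6.46 and 6.63 in HP pools and 6.58, 6.43 and 6.55 in control pools, and its ratio was 0.06 ± 0.10, or −0.07 under median centring, which is 0.32 relative to the median of all tested genes there.

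The ratios of the upstream trophectoderm regulators Tead4 and Wwtr1 were close to 0, on probes little above the median of undetected probes (6.25). The background offset shrinks ratios at such levels, so these values do not show that the genes were unchanged. With an offset of 0 the ratios were −0.12 for Tead4 and −0.11 for Wwtr1. Tead4, the DNA-binding factor that starts the trophectoderm programme, had 6.79, 6.80 and 6.68 log2 intensity in HP pools 1, 2 and 3 and 7.12, 6.64 and 6.65 in control pools 1, 2 and 3. The groups overlapped, and its ratio was −0.05 ± 0.15, and 0.09 without replicate 1. Its coactivator Wwtr1 had 6.37, 6.61 and 6.42 in HP pools and 6.61, 6.46 and 6.42 in control pools, with a ratio of −0.03 ± 0.13, and 0.07 without replicate 1. Wwtr1 was above background only in HP pool 2 and control pools 1 and 2, so it was compared through the control channel alone. The other coactivator, Yap1, was not above background in any pool.

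Tfap2c, an AP-2 factor of trophoblast and germ cells, had 7.55, 7.53 and 7.32 log2 intensity in HP pools 1, 2 and 3 and 7.61, 7.56 and 7.21 in control pools 1, 2 and 3, a near match on each array. Its ratio was 0.01 ± 0.11 and changed sign with the scaling, to −0.55 under median centring. Tead1, a relative of Tead4, varied more between pools of 1 group than between groups. It had 7.91, 6.64 and 7.19 in HP pools and 7.27, 6.94 and 8.45 in control pools, with ratios of 0.64, −0.30 and −1.26 and a mean of −0.31 ± 0.40. The probe behind these values carries the older name 2610024B07Rik on the array. The probe named Tead1, and another of the older name, were above background in no pool.

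Id2 was the most variable gene of the set. Id2 is an inhibitor of basic helix-loop-helix factors and an early marker of outer cells. Its levels were 7.10, 8.54 and 8.43 log2 intensity in HP pools 1, 2 and 3 and 8.56, 6.98 and 7.50 in control pools 1, 2 and 3. HP pool 1 was the low pool of its group and control pool 1 the high pool of its own, so the array of replicate 1 read −1.46 and the arrays of replicates 2 and 3 read 1.55 and 0.92. The mean ratio was 0.34 ± 0.65 (adjusted p = 0.791 in limma). Without replicate 1 it was 1.24, with adjusted p = 0.0832, and it was below 0 without replicate 2 (−0.27) and under median centring (−0.31, or 0.08 relative to the median of all tested genes there).

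**Figure D3:**
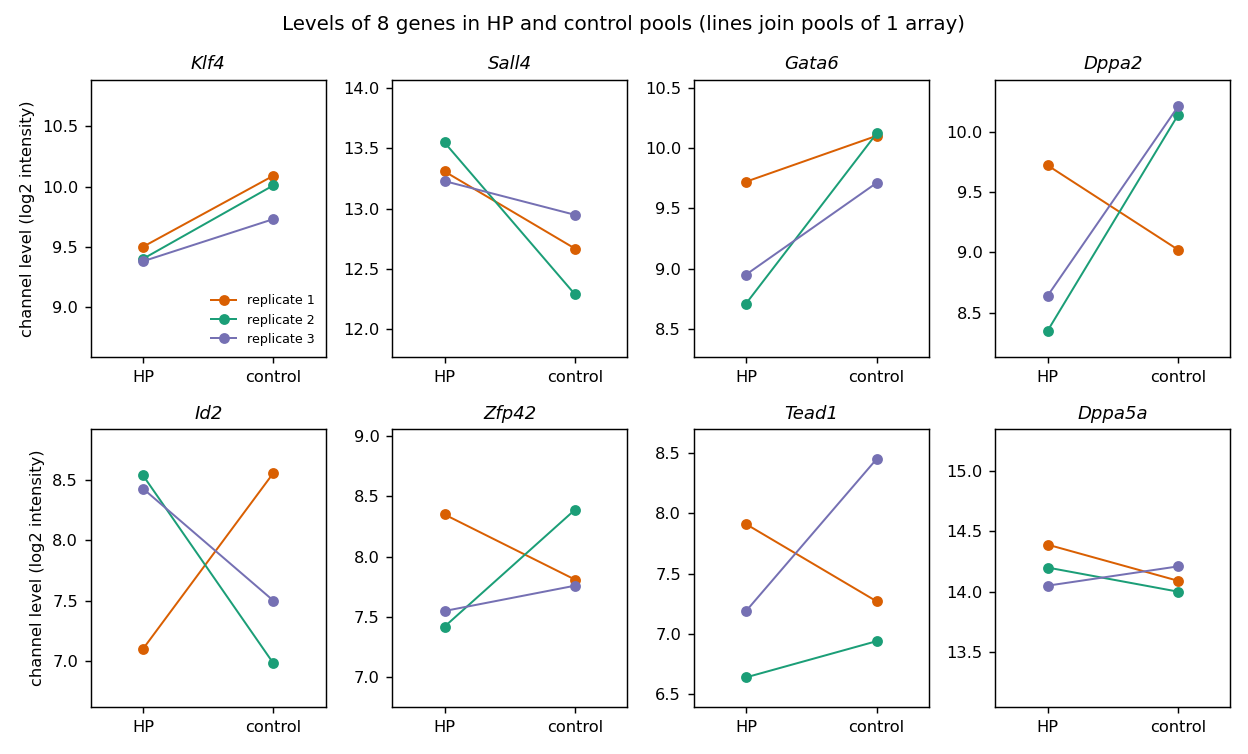
Levels (log2 intensity after loess and quantile scaling of the mean brightness) of 8 genes in the HP pool (left) and the control pool (right) of each array, joined by a line per replicate; all panels span the same range. Klf4 and Gata6 lines climb towards control on every array and Sall4 lines descend, whereas for Dppa2 and Id2 the line of replicate 1 crosses the others.

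Gata6 was the only primitive endoderm gene bright enough to compare. It encodes the GATA factor that drives inner cells towards primitive endoderm and opposes Nanog there. Its levels were 9.72, 8.71 and 8.95 log2 intensity in HP pools 1, 2 and 3 and 10.10, 10.12 and 9.71 in control pools 1, 2 and 3. Each HP pool was below the control pool of its array, but HP pool 1 lay just above control pool 3, so the groups overlapped. The log2 ratio was −0.85 ± 0.24, or 1.80-fold lower in HP, with an unadjusted p under 0.05 and adjusted p = 0.217 in limma. The unadjusted p was above 0.05 without replicate 3 (ratio −0.89), with replicates 2 and 3 counted as 1 (−0.73) and with the scanner software's log ratio (−0.89). The other 2 Gata6 probes, with 6.27 to 6.37 in HP pools and 6.29 to 6.41 in control pools, were not above background.

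In the correlations of ratios over the set, the array of replicate 1 stood apart from the arrays of replicates 2 and 3. Over the 19 genes the ratios correlated at r = 0.79 between the arrays of replicates 2 and 3, and at −0.28 and −0.55 between replicate 1 and each of these. The same values over 7245 genes were 0.65, 0.23 and 0.22. These correlations are across genes, which are not independent, and they share the dye assignment. With 19 genes, the values lean on the few that had wide ratios. Dppa2 had 0.70, −1.79 and −1.57 and Id2 −1.46, 1.55 and 0.92 on the arrays of replicates 1, 2 and 3. The correlations without these 2 genes were not computed. For 6 of the 19 genes, the arrays of replicates 2 and 3 had 1 sign and the array of replicate 1 the other, beside 25.4% of all tested genes. Dppa2 and Id2 did so with at least 0.5 log2 units on each array (2 of 19, beside 1.53%); this size was chosen after the values were seen.

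The scaling of the arrays moved the median of the set more than any other setting that was run. Under median centring, which removes 1 constant per array in place of a curve along brightness, the median of all tested genes was −0.39 and that of the 19 genes −0.46. All 19 were then below 0, and 12 of 19 lay below the median of all tested genes. Relative to that median, Dppa2, Gata6, Klf4 and Dppa5a stood at −1.35, −1.32, −1.01 and −0.78 on the log2 scale, whereas Sall4 stood at −0.07 and Utf1 at 0.32. With this scaling 1047 genes passed adjustment in limma, among them Gata6 (adjusted p = 0.0464), Klf4 (0.0415) and Klf2 (just under 0.05) of the set. These p-values test each ratio against 0 and not against the median of −0.39, so they do not show a difference from the bulk of genes. With the scanner software's log ratio, Klf17, Dppa4 and Tead1 had −0.43, −0.48 and −0.89, each over 1.5 times its loess ratio. The negative direction of Klf4 and Gata6 was thus kept in all 3 scalings, and the positive direction of Sall4 was not. Median centring leaves a trend along brightness in place, however. Klf2 and Dppa5a, with loess ratios of 0.10 and 0.11, also lay below the median of all tested genes there, at −0.46 and −0.78. Standing below it under that scaling is therefore no separate evidence for Klf4 or Gata6. The part of brightness in the turn of Sall4 was not tested.

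**Figure D4:**
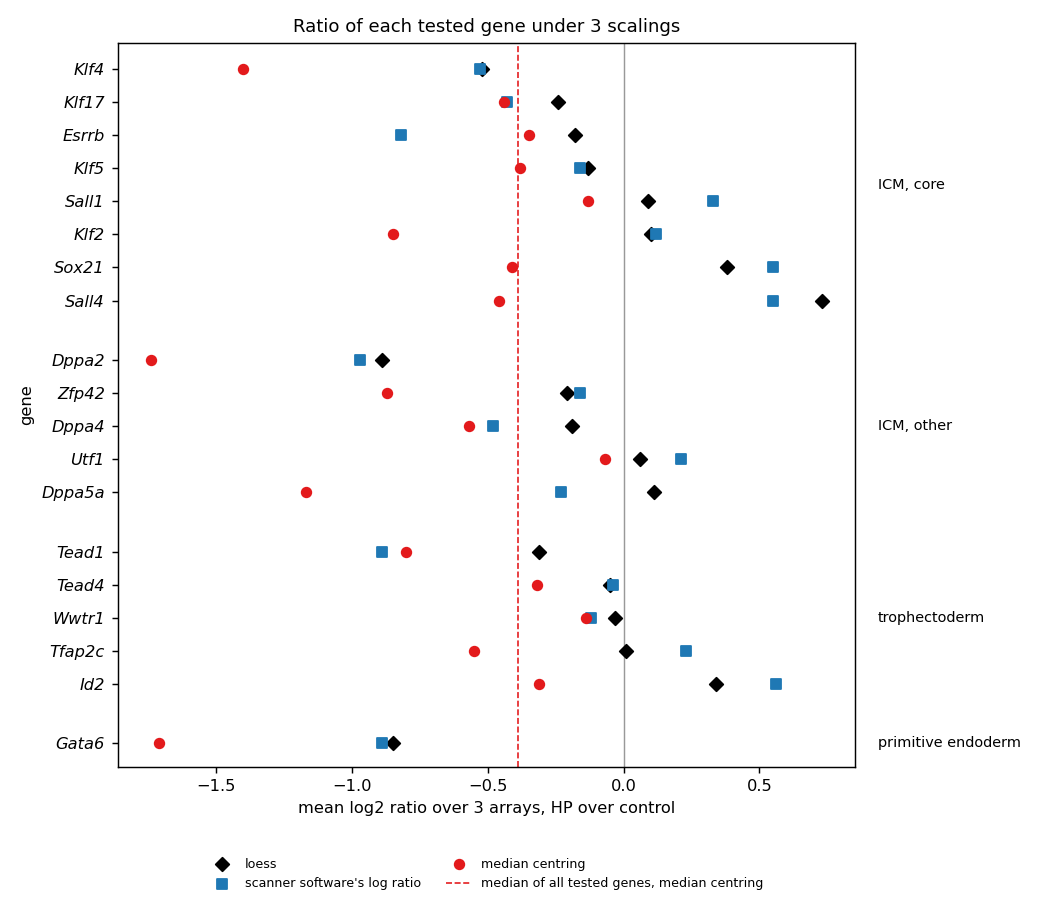
Mean log2 ratio over the 3 arrays, HP over control, of the 19 genes with loess (black diamonds), the scanner software's log ratio (blue squares) and median centring (red circles), with the median of all tested genes under median centring as a dashed line at −0.39. Red circles are all below 0, and those of Dppa2, Gata6 and Klf4 lie farthest left.

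The pathways that act on these regulators were read from lists of further genes, and none of their members passed adjustment. Hippo pathway kinases and scaffolds keep Yap1 and Wwtr1 out of the nucleus in inner cells. Of 17 listed genes, 9 were compared, with a median log2 ratio of −0.08; 3 of 9 had p under 0.05 (18.5% of all tested genes), all negative (11.2%), and 0 were positive at that p (7.25%). They were the kinases Lats1 (−0.40 ± 0.11) and Stk4 (−0.44 ± 0.15) and the scaffold Amot (−0.55 ± 0.19), the last outside the naming rule and picked after its value was seen.

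FGF signalling through ERK promotes primitive endoderm. In this list 14 of 22 genes were compared, with a median of −0.12, and 3 of 14 had p under 0.05, beside 18.5% of all tested genes, of which 2 were positive (7.25%) and 1 negative (11.2%). The phosphatase Ptpn11 (Shp2), which relays receptor signals, had a ratio of 1.11 ± 0.35, while the feedback inhibitor Spry2 had −0.53 ± 0.18. The adaptor Grb2 had −0.72 ± 0.32, with p above 0.05. Fgfr1, Fgfr3, Etv4 and Etv5 of this list were above background in no pool. In the LIF pathway, which sustains embryonic stem cells, 5 of 7 listed genes were compared and their median was 0.11. Its transcription factor Stat3 had 0.40 ± 0.11, the 1 gene of 5 with p under 0.05 (18.5% of all tested genes), and the receptor Lifr −0.06 ± 0.11.

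Of 21 further genes of the pluripotency network, 9 were compared, with a median of 0.08, and 2 of 9 had p under 0.05, beside 18.5% of all tested genes, both negative (11.2%). These were Tbx3, a T-box factor that supports self-renewal (−0.68 ± 0.12), and Klf9, another Krüppel-like factor (−0.80 ± 0.20). Dppa3 (Stella), a maternal factor that protects methylation, had 0.25 ± 0.11, and Trim28, a corepressor, 0.46 ± 0.26. Among 21 genes that carry out trophectoderm functions, 10 were compared, with a median of −0.10. Hand1, a trophoblast transcription factor, had −0.35 ± 0.13 and was the 1 gene of 10 with p under 0.05 (18.5% of all tested genes). The tight junction protein Tjp1 had 0.29 ± 0.12. Of 17 genes of primitive endoderm and its basement membrane, 4 were compared, with a median of −0.23 and none with p under 0.05; Lamc1, a laminin chain, had −0.20 ± 0.12 and the collagen gene Col4a1 0.04 ± 0.10.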

How the data were processed

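Per the labels' protocols, total RNA of each pool was extracted, and 240 pg was amplified in successive rounds and labelled with Cy5 (HP) or Cy3 (control). The 3 arrays lay on 1 slide, and the submitters' processing notes name Agilent Feature Extraction 9.5.1.1. Spot means and local background medians were deposited as plain intensity values, with nothing subtracted. As log10 values, the deposited ratios are Cy5 over Cy3 after the authors' background subtraction and dye normalization by that software, and the series table holds the same log10 values. Zeros made up 48.2%, 43.4% and 53% of these ratios for replicates 1, 2 and 3. How they bear on the scanner software's ratios of dim genes was not tested.

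Signals were corrected with limma 3.58.1 (R 4.3.3; normexp, offset 50) and normalized within arrays by loess with control spots at weight 0. Outlier spots (208, 172 and 325 on replicates 1, 2 and 3) were left out. Spots of 1 probe were averaged. The offset shrinks ratios of dim probes. Levels are log2 values per channel after loess and Aquantile scaling, and no level of 1 probe is set against that of another. Symbols came from RefSeq (GRCm38.p6) matched through accessions (22951 probes), symbols (6659) or synonyms (3109), and 8455 names were kept as given. A gene is its tested probe of highest mean intensity. Ratios were fitted as an intercept with empirical Bayes moderation (prior degrees of freedom 2.05, residual 2), with Benjamini-Hochberg adjustment over 7254 genes or 8590 probes and a threshold of 0.05. The number of arrays limits the precision.

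Each compared gene of the set is named with its ratio, and genes without a bright probe by their detection. Of each pathway list, the genes named are up to 2 per direction with the smallest p among those of the same sign on all arrays, and a few genes this rule takes are not reported here. The genes and lists were chosen with earlier results of these data known. The fit and the adjustment, but not the steps before them, were run on simulated ratios. Of 50 genes each at a true log2 ratio of −1 and 1, 10 and 8 passed adjustment in limma. At −2 and 2 it was 41 and 42 of 50, and 6 of 7054 genes at 0 also passed. Other settings were the scanner software's log ratio, median centring, an offset of 0, signals without background subtraction, looser and stricter filters, separate channels, the mean over probes, removal of a base composition trend, replicates 2 and 3 counted as 1, and each replicate left out. No genome sequence was used here.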

Additional observations from a re-analysis of the deposited data

How the results depend on the processing

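No gene of the array passed adjustment in limma under any setting run except median centring, which gave 1047. Of the 19 genes, 3 (3 probes) had unadjusted p under 0.05 and 11 were below 0, at a median of −0.05. Median centring gave 7 genes, 10 probes, 19 below 0 and a median of −0.46; the scanner software's log ratio gave 0 genes, 0 probes and −0.16; an offset of 0 gave 1 gene, 1 probe and −0.12. With no filter on dim probes, 20 of 35 were below 0, at a median of −0.01, and with replicates 2 and 3 counted as 1 the median was −0.08. Leaving out 1 replicate gave 1 to 4 genes, 1 to 6 probes and medians of −0.12 (without replicate 2) to 0.02 (without replicate 1). Pairing of the pools comes from the shared array; separate channels with no replicate block gave 3 genes and a median of −0.05. The positive-and-significant call detected 30 genes in place of 19 (all genes 55.6%), and 24 and 16 were detected on at least 1 array and on all 3.

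Ratios changed sign for Dppa5a with the scanner software's log ratio (−0.23) and over the mean of its probes (−0.01), and for Tfap2c with an offset of 0 (−0.01). Median centring turned Dppa5a (−1.17), Id2 (−0.31), Klf2 (−0.85), Sall1 (−0.13), Sall4 (−0.46), Sox21 (−0.41), Tfap2c (−0.55) and Utf1 (−0.07), but relative to the median of all tested genes there (−0.39), Id2, Sall1 and Utf1 stayed above 0 (0.08, 0.26 and 0.32). Leaving out 1 replicate gave −0.27 to 1.24 for Id2, −0.78 to 0.17 for Tead1, −0.16 to 0.09 for Tead4, −0.04 to 0.04 for Tfap2c, −0.12 to 0.07 for Wwtr1 and −0.59 to 0.16 for Zfp42. With replicates 2 and 3 counted as 1, Id2 was −0.11 and Tfap2c −0.01. Klf4 and Gata6 were negative under every setting run (−1.40 to −0.47 and −1.71 to −0.57). The cause of these shifts was not tested. No dye swap was made, and for dim probes near the level of undetected ones, small ratios are not measurable.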
